A study of Homo sapiens with 9 samples.

Results

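The genes described here encode 10 enzymes that make serine, one-carbon units, asparagine and proline: PHGDH, PSAT1, PSPH, SHMT1, SHMT2, MTHFD2, MTHFD1L, ALDH1L2, ASNS and PYCR1. They were chosen as a named list with earlier results of these data known, as were the related lists below. The genes were matched by symbol to the Ensembl gene IDs of the count files, where all 10 were found among 60880 IDs. The values come from poly-A RNA-seq of SNU5, an established human gastric carcinoma line. The cells were treated for 24 h with ramucirumab, a monoclonal antibody to VEGFR2, at 8 μg/mL of antibody in every group. In the NR group the antibody was carried by PEG-coated gold nanorods (AuNR-PEG-Ab), in the SP group by PEG-coated gold nanospheres (AuSP-PEG-Ab), and in the Ab group it was given alone. Each group had 3 libraries, and the sum of counts per library ran from 19566064 to 26318227 in Ab, from 20601906 to 22914759 in SP and from 13863155 to 25735410 in NR. No group without antibody was analysed here, so a gene that is lower in NR or SP than in Ab is described by that difference and not by a change from untreated cells. In bulk RNA, fewer cells of a type and less RNA per cell cannot be told apart.

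Serine is made from a glycolytic intermediate in 3 steps, run in order by PHGDH, PSAT1 and PSPH. The serine hydroxymethyltransferases then split serine into glycine and a one-carbon unit on tetrahydrofolate, SHMT2 in mitochondria and SHMT1 in the cytosol. In mitochondria MTHFD2 oxidises that unit, after which MTHFD1L releases it as formate for export or ALDH1L2 oxidises it to carbon dioxide with a gain of NADPH. ASNS makes asparagine from aspartate and glutamine, and PYCR1 runs the last step of proline synthesis. Many of these genes are known targets of ATF4, the transcription factor of the amino acid and integrated stress response, which binds composite C/EBP-ATF elements with the letters TGATGNAA, N being any base.

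Of the 10 enzymes, 7 were lower in both nanoparticle groups than in Ab by more than 2-fold: PHGDH, PSAT1, PSPH, SHMT2, MTHFD2, ALDH1L2 and ASNS. MTHFD1L and PYCR1 were lower by less than 2-fold, and SHMT1 was higher. Groups were compared in pairs by the quasi-likelihood test of edgeR, a count model fitted across all genes, and p-values were adjusted over all of them by the Benjamini-Hochberg method. Called genes are those with a difference of 2-fold or more whose adjusted p did not exceed 0.05. In NR against Ab, 7 of the 10 were called lower and 0 higher, where 22.7% of the 15009 genes tested were called, 10.3% lower and 12.4% higher. In SP against Ab the same 7 genes were called lower and 0 higher, where 23.2% of the 15068 genes tested were called, 10.6% lower and 12.6% higher. Without the 2-fold minimum, 9 passed the adjusted p in the lower direction and 1 in the higher in each comparison. Of all genes tested, 36.4% passed lower and 36.4% higher in NR against Ab, and 36.6% and 36.4% in SP against Ab, 72.7% and 73.0% in all. The NR and SP comparisons share the same 3 Ab libraries, so they are not separate evidence. The median log2 fold change of the 10 genes was -1.58 in both, beside -0.0055 over all genes tested in NR against Ab and -0.0067 in SP against Ab. With each gene's values in the 9 libraries, the Ab libraries did not overlap those of NR or of SP in any of the 10 genes, with Ab higher in 9 and lower in 1. Of all genes tested, 74.7% did not overlap in NR against Ab (37.5% lower than Ab and 37.1% higher) and 75.1% in SP against Ab (37.8% and 37.4%).

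**Figure D1:**
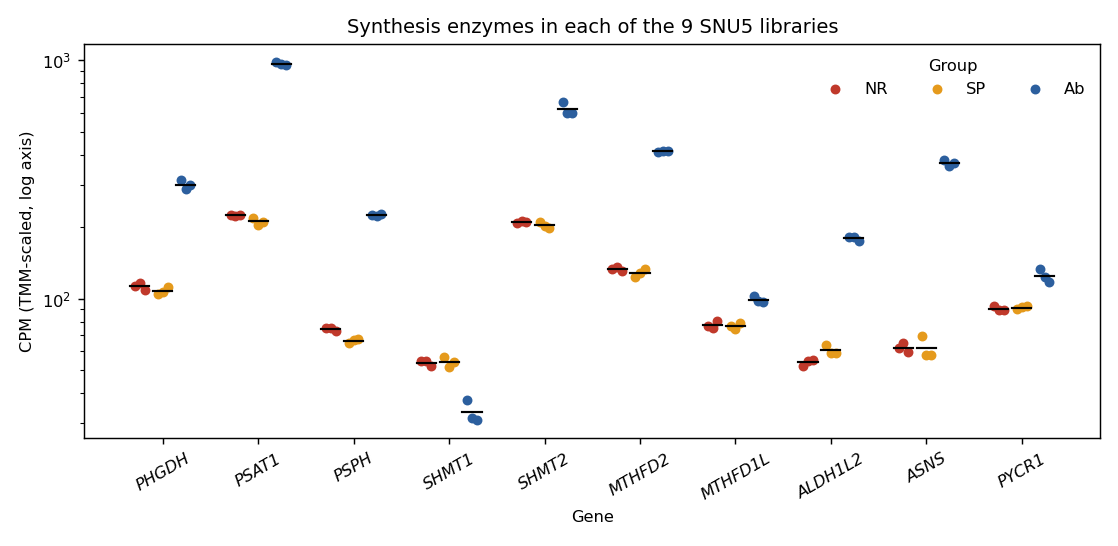
Level of each enzyme gene in each library, as CPM on a log axis, for NR (red), SP (orange) and Ab (blue); points are libraries and short lines the mean of 3. The Ab points lie above both nanoparticle groups in 9 genes and below them in SHMT1, and the ASNS points lie at 361 to 381 CPM in Ab and at 57.7 to 69.6 CPM in NR and SP.

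Sequences before the start of transcription were read from RefSeq promoter windows (GRCh38.p14, 250 bases before to 50 after each start), which held 6 of the 10 genes: PHGDH, PSAT1, SHMT1, MTHFD2, MTHFD1L and ASNS. The 150 bases before the start of 3 of them are printed 5′ to 3′ on the gene's strand, because they hold the ATF4 letters in a gene with a large difference from Ab (ASNS) and in one with a small difference (MTHFD1L), and repeated CCAAT boxes in the most abundant of the 10 genes (PSAT1). Capitals mark TGATGNAA in the first pair and CCAAT in PSAT1. The windows are ASNS at chr7:97872409-97872558 on the minus strand, MTHFD1L at chr6:150866336-150866485 on the plus strand and PSAT1 at chr9:78296975-78297124 on the plus strand.
ASNS: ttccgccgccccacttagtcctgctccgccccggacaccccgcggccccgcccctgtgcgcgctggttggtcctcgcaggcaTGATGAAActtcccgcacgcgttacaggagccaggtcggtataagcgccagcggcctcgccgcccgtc
MTHFD1L: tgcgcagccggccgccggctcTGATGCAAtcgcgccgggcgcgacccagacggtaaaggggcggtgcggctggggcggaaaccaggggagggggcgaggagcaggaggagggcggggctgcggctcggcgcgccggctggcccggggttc
PSAT1: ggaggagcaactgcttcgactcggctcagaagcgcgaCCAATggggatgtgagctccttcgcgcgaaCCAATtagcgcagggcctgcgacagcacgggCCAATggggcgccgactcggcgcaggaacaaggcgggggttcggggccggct

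Both strands were searched for TGATGNAA, for CCAAT, the box bound by NF-Y, and for CACGTG, the E-box; the 3 motifs share no letters of a site in the stretches shown. TGATGNAA stood in the windows of 2 of the 6 genes, and 3.63% of all 34796 promoter windows held it. In ASNS it read TGATGAAA with its first base at -68 from the start, in 1 of the gene's 2 start windows, and in MTHFD1L it read TGATGCAA at -129 in the window shown and stood in 3 of its 4 start windows. CCAAT stood in 5 of the 6 genes, and 34.6% of all windows held it. PSAT1 had it at -113, -83 and -52, MTHFD2 at -184 and -74, and PHGDH at -71, while SHMT1, which differed from Ab in the other direction, had it at -76 and, on the other strand, at -25. CACGTG stood in 1 of the 6 genes, MTHFD1L at -154, and in 7.20% of all windows. For each motif a gene was counted if any of its start windows matched, while the shares are per window. The gene counts and the shares are therefore not like for like. These matches describe letters and not binding, and a motif that was not matched is only not in these windows.

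PSAT1, the transaminase of the serine pathway (chr9:80912041-80945009 on GRCh37, plus strand), had 18906, 25192 and 19643 counts in the Ab libraries. The counts were 5778, 3110 and 3595 in the NR libraries and 4766, 4737 and 4347 in the SP libraries. On the CPM scale, which sets counts against the TMM-scaled library total, these were 984, 967 and 952 in Ab, 224, 223 and 224 in NR, and 218, 204 and 210 in SP. All 6 nanoparticle libraries lay far below the lowest Ab library, and the spread inside each group was small beside that gap. The mean was 968 ± 16.1 CPM in Ab, 224 ± 0.593 in NR and 211 ± 7.02 in SP (SD, n = 3 each, as for every ± below). PSAT1 was 4.32-fold lower in NR than in Ab (at -2.11 on the log2 scale, SE 0.041, adjusted p = 1.15e-25) and 4.56-fold lower in SP (-2.19, SE 0.045, adjusted p = 7.25e-25). Counted from the lowest fold change, it ranked 271 of 15009 genes in NR against Ab and 268 of 15068 in SP against Ab.

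PHGDH, the dehydrogenase that opens the serine pathway (chr1:120191034-120286841, plus strand), stood at 315, 288 and 299 CPM in Ab. It stood at 113, 116 and 109 CPM in NR and at 104, 106 and 112 CPM in SP. The NR and SP libraries overlapped each other, and every one of them was below every Ab library. The log2 fold change was -1.41 (SE 0.048, adjusted p = 1.85e-20) in NR and -1.48 (SE 0.049, adjusted p = 3.59e-20) in SP, or 2.66-fold and 2.78-fold lower than in Ab.

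PSPH, the phosphatase that releases serine (chr7:56078744-56119297, minus strand), stood at 225, 223 and 226 CPM in Ab. It stood at 75.1, 75.3 and 73.4 CPM in NR and at 65.0, 67.2 and 67.3 CPM in SP. The 3 groups did not overlap, with NR between SP and Ab. The log2 fold change of PSPH was -1.58 in NR (SE 0.047, adjusted p = 8.39e-22) and -1.75 in SP (SE 0.049, adjusted p = 9.23e-22), the latter being 3.36-fold lower than in Ab. PSPHP1, a pseudogene copy of PSPH that may share its reads, did not follow it, with 285, 455 and 327 counts in Ab libraries, 496, 275 and 346 in those of NR and 394, 430 and 443 in those of SP. On the log2 scale PSPHP1 was higher than in Ab by 0.32 (SE 0.09, adjusted p = 0.00217) in NR and 0.27 (SE 0.093, adjusted p = 0.011) in SP. With the pseudogene's counts added to those of PSPH, the log2 fold change of PSPH was -1.34 in NR and -1.48 in SP, and it was called lower in both.

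SHMT2, the mitochondrial serine hydroxymethyltransferase (chr12:57623356-57628718, plus strand), stood at 670, 600 and 599 CPM in Ab. It stood at 208, 212 and 209 CPM in NR and at 209, 202 and 197 CPM in SP. The first Ab library was the highest of its group, and all 3 were above the nanoparticle libraries. SHMT2 was 2.96-fold lower in NR (at -1.57 on the log2 scale, SE 0.047, adjusted p = 1.05e-21) and 3.06-fold lower in SP (-1.61, SE 0.049, adjusted p = 4.13e-21).

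SHMT1, the cytosolic enzyme of the same reaction (chr17:18231174-18266877, minus strand), was the one gene of the 10 that was higher in the nanoparticle groups. It had 723, 822 and 635 counts in the Ab libraries, 1417, 760 and 836 in those of NR and 1241, 1201 and 1119 in those of SP. On the CPM scale these were 37.6, 31.5 and 30.8 in Ab, 54.8, 54.5 and 52.2 in NR, and 56.8, 51.8 and 54.1 in SP. The first Ab library was the highest of its group here too, and was still below all NR and SP libraries. SHMT1 was 1.62-fold higher in NR (at 0.70 on the log2 scale, SE 0.071, adjusted p = 7.29e-10) and 1.64-fold higher in SP (0.71, SE 0.072, adjusted p = 1.07e-09), short of the 2-fold minimum.

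MTHFD2, the mitochondrial methylenetetrahydrofolate dehydrogenase (chr2:74413299-74444692, plus strand), stood at 411, 416 and 418 CPM in Ab. It stood at 133, 136 and 130 CPM in NR and at 123, 128 and 133 CPM in SP. The Ab libraries differed little among themselves and lay above all others. MTHFD2 was 3.12-fold lower in NR (at -1.64 on the log2 scale, SE 0.044, adjusted p = 8.61e-23) and 3.23-fold lower in SP (-1.69, SE 0.046, adjusted p = 4.48e-22). MTHFD2P7, its most counted pseudogene copy, had 60 to 90 counts in Ab, 10 to 27 in NR and 15 to 24 in SP.

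ALDH1L2, the mitochondrial formyltetrahydrofolate dehydrogenase (chr12:105413562-105501421, minus strand), stood at 182, 181 and 175 CPM in Ab. It stood at 52.1, 54.8 and 55.0 CPM in NR and at 63.7, 59.2 and 58.9 CPM in SP. The 3 groups did not overlap, and here SP lay between NR and Ab, the reverse of the order for PSPH. ALDH1L2 was 3.32-fold lower in NR (at -1.73 on the log2 scale, SE 0.05, adjusted p = 6.37e-22) and 2.94-fold lower in SP (-1.56, SE 0.053, adjusted p = 4.83e-20).

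MTHFD1L, the mitochondrial formate-forming enzyme (chr6:151186815-151423023, plus strand), differed least from Ab of the 10 genes in both comparisons. It stood at 102, 97.4 and 97.1 CPM in Ab, at 77.0, 75.2 and 80.7 CPM in NR and at 76.5, 74.5 and 78.8 CPM in SP. The groups were apart from Ab by more than their spread, though by a small step: 1.27-fold lower in NR (at -0.35 on the log2 scale, SE 0.052, adjusted p = 9.89e-07) and 1.29-fold lower in SP (-0.36, SE 0.055, adjusted p = 1.32e-06).

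ASNS, the asparagine synthetase (chr7:97480989-97501854, minus strand), had the lowest fold change of the 10. It had 7312, 9421 and 7638 counts in the Ab libraries, 1599, 906 and 955 in those of NR and 1520, 1348 and 1193 in those of SP. On the CPM scale it stood at 381, 361 and 370 in Ab, at 61.9, 65.0 and 59.6 in NR, and at 69.6, 58.1 and 57.7 in SP. The first SP library was the highest nanoparticle library and was far below every Ab library. ASNS was 5.95-fold lower in NR (log2 fold change -2.57, 95% interval -2.67 to -2.47, SE 0.049, adjusted p = 5.37e-26) and 5.96-fold lower in SP (-2.58, SE 0.061, adjusted p = 4.09e-20). Counted from the lowest fold change, it ranked 126 of 15009 genes in NR against Ab and 155 of 15068 in SP against Ab.

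PYCR1, the mitochondrial pyrroline-5-carboxylate reductase (chr17:79890260-79900288, minus strand), stood at 133, 123 and 117 CPM in Ab, at 92.9, 89.9 and 89.5 CPM in NR and at 90.0, 92.2 and 92.8 CPM in SP. The NR and SP libraries overlapped and were all below Ab. PYCR1 was 1.37-fold lower in NR (at -0.45 on the log2 scale, SE 0.052, adjusted p = 1.07e-08) and 1.35-fold lower in SP (-0.43, SE 0.055, adjusted p = 5.68e-08). The sources used here do not say whether counting used strand, so overlapping genes are uncertain. PYCR1 shared 29.73% of its exon bases with other genes of the table, MTHFD2 14.15% and SHMT2 8.384%, and the named genes that overlap them, MYADML2, SLC4A5 and NDUFA4L2, had at most 6, 10 and 28 counts in a library. SHMT1 (2.808%) and ALDH1L2 (2.907%) shared less, but with genes that had many counts: SMCR8, which overlaps SHMT1, had 864 to 2338 counts, and WASHC4 and NOPCHAP1, which overlap ALDH1L2, had 1130 to 3880 and 255 to 449.

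**Figure D2:**
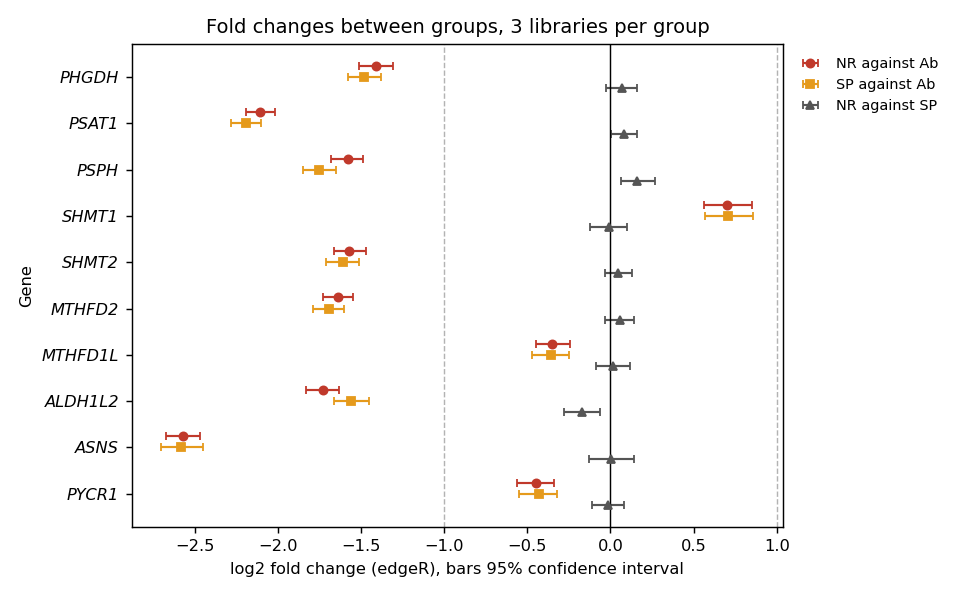
Fitted log2 fold change of each enzyme gene with its 95% confidence interval for NR against Ab (red circles), SP against Ab (orange squares) and NR against SP (grey triangles), 3 libraries per group; dashed lines mark a 2-fold change. For 7 genes both comparisons with Ab lie left of the lower dashed line, from -1.41 for PHGDH to -2.57 for ASNS in NR, while all NR against SP values lie between -0.17 and 0.16.

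NR and SP carry the same antibody on gold of different shape, and their direct comparison asks whether these genes differed between the particle types. The particles also differed in size, supplier and measured surface charge, so shape cannot be told apart from these. Of the 10 genes, 0 were called and 0 passed the adjusted p in edgeR, 0 were called in DESeq2, and 3 had an unadjusted p under 0.05 in edgeR: PSPH, ALDH1L2 and PSAT1. Of the 14903 genes tested, 0.0201% were called, 0.443% passed the adjusted p (0.262% higher in NR and 0.181% lower) and 12.9% had an unadjusted p under 0.05. The share called rests on 3 genes, and that count became 28 without NR replicate 1, 0 without NR replicate 2, 1 without SP replicate 1 and 5 without SP replicate 3. PSPH was higher in NR than in SP by a log2 fold change of 0.16 (95% interval 0.062 to 0.27, adjusted p = 0.127), and ALDH1L2 was lower by -0.17 (-0.28 to -0.06, adjusted p = 0.148). The NR and SP libraries did not overlap in PSAT1, PSPH and ALDH1L2, the first pair higher in NR and the last lower, that is in 3 of 10 genes. Of all genes tested, 17.8% did not overlap, 8.98% higher in NR and 8.84% lower. The intervals for the others reached at most 0.16 in size: ASNS had a log2 fold change of 0.0047 (-0.13 to 0.14), PHGDH 0.067 (-0.027 to 0.16) and MTHFD2 0.056 (-0.033 to 0.14). SHMT1 had -0.011 (-0.12 to 0.10) and PYCR1 -0.015 (-0.11 to 0.08). These widths leave room for small differences between the particle types and hold none near 2-fold.

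To compare levels between genes, counts were divided by the length of the union of each gene's annotated exons, which can differ from the length of the transcripts these cells make, and scaled to the same sum in each library, as TPM is. On this length-scaled scale PSAT1 was the most abundant of the 10 in all groups, at 1708 ± 26.8 in Ab, 370 ± 4.16 in NR and 354 ± 10.4 in SP (SD, n = 3). In Ab it was followed by SHMT2 (528 ± 27.0), PSPH (316 ± 4.19), ASNS (295 ± 2.75), PYCR1 (168 ± 8.98), MTHFD2 (141 ± 3.36), PHGDH (127 ± 3.51), MTHFD1L (78.8 ± 1.43), ALDH1L2 (73.5 ± 1.79) and SHMT1 (18.5 ± 1.83). No neighbours in that order overlapped in Ab. In NR and SP the order was PSAT1, SHMT2, PYCR1, PSPH, MTHFD1L, ASNS, PHGDH, MTHFD2, SHMT1 and ALDH1L2. ASNS thus stood above PYCR1 in Ab and below PYCR1 and MTHFD1L in NR and SP. There, on this scale, ASNS could not be set apart from PHGDH, nor PHGDH from MTHFD2, beyond the spread of the libraries. The places of PHGDH and MTHFD2 rest on the exon lengths used, 9187 and 11443 bases, against 2886 for PYCR1 and 4896 for ASNS. In CPM both stood above PYCR1 in every group, at 300 and 415 against 125 in Ab. In NR they stood at 113 and 133 against 90.8 for PYCR1, and in SP at 107 and 128 against 91.7. The rarest of the 10 was SHMT1 in Ab and ALDH1L2 in NR and SP, where ALDH1L2 stood at 20.7 ± 0.833 and 23.6 ± 1.07 and SHMT1 at 28.0 ± 0.609 and 28.6 ± 1.19. This order rests on the exon lengths used, 9493 bases for ALDH1L2 and 7015 for SHMT1, since in CPM the pair was level in NR (54.0 and 53.8) and SHMT1 was the lower in SP (54.2 against 60.6). The summed level of the 10 genes was 3495, 3472 and 3394 in the Ab libraries, 978, 998 and 991 in NR and 982, 960 and 952 in SP.

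**Figure D3:**
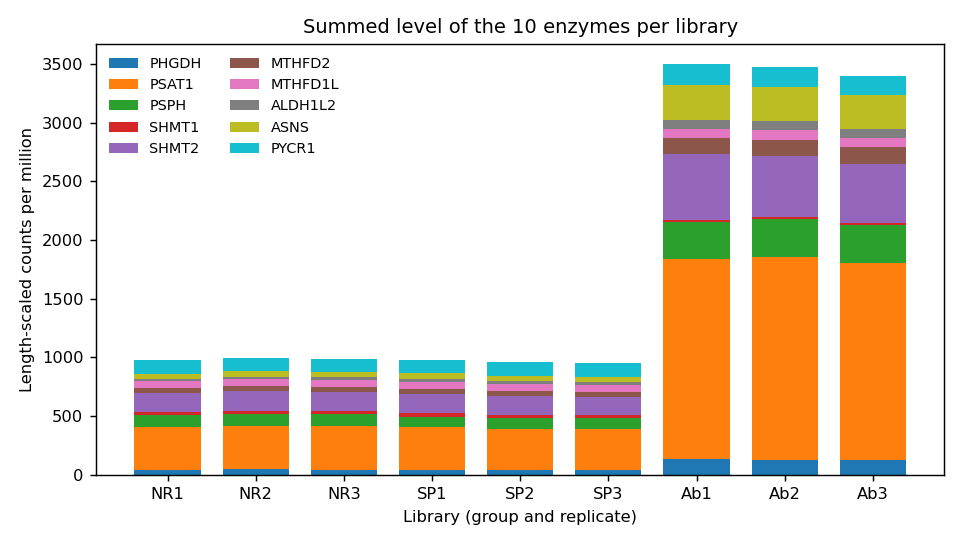
Summed length-scaled level of the 10 enzyme genes in each library, stacked by gene, after division of counts by exon length and scaling to the same sum per library. The 3 Ab bars reach 3394 to 3495 and the 6 nanoparticle bars 952 to 998, and PSAT1 is the tallest segment in every bar.

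Ratios between genes of the same step or route, on the length-scaled levels, show how unequal the differences were. SHMT2 was 28.7 ± 1.31 times the level of SHMT1 in Ab, with 27.2, 29.1 and 29.7 in its libraries, and 5.96 ± 0.170 times in NR and 5.71 ± 0.209 times in SP. The ratio of MTHFD2 to MTHFD1L was 1.79 ± 0.0678 in Ab, against 0.733 ± 0.0408 in NR and 0.712 ± 0.0239 in SP. Whether that ratio crosses equality rests on the exon lengths used, 11443 bases for MTHFD2 and 4891 for MTHFD1L, and in CPM, without them, MTHFD2 was the higher in every group (133 against 77.6 in NR, 128 against 76.6 in SP and 415 against 99.0 in Ab). PSAT1 over PHGDH was 13.4 ± 0.483 in Ab, 8.27 ± 0.313 in NR and 8.19 ± 0.457 in SP. The size of this ratio, like that of SHMT2 over SHMT1, rests on the exon lengths used. These were 2206 bases for PSAT1 and 9187 for PHGDH, and 4592 for SHMT2 and 7015 for SHMT1. In CPM PSAT1 stood at 968 against 300 for PHGDH in Ab, 224 against 113 in NR and 211 against 107 in SP. SHMT2 stood at 623 against 33.3 for SHMT1 in Ab, 210 against 53.8 in NR and 203 against 54.2 in SP. None of these ratios overlapped between Ab and the nanoparticle groups. They are given as a description, with no test.

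The other genes of the folate cycle, which move the one-carbon units on to nucleotides and methionine, were mostly higher in NR and SP than in Ab. Of 15 listed genes 12 could be tested, and in NR against Ab 3 were called higher, GGH and TYMS among them (47.91% of the exon bases of TYMS lie inside overlapping genes), and 1 lower (MTHFD2L), while 10 passed the adjusted p in the higher direction and 2 in the lower. In SP against Ab, 1 was called higher and MTHFD2L lower, and again 10 passed higher and 2 lower. Over all genes 12.4% (NR) and 12.6% (SP) were called higher and 10.3% and 10.6% lower. These calls alone do not set the list apart. The adjusted p was passed higher by 36.4% of all genes in each comparison, and lower by 36.4% and 36.6%. MTHFD1, the cytosolic counterpart of the mitochondrial route, was higher at 0.72 (adjusted p = 8.89e-14) in NR and 0.69 (adjusted p = 5.70e-13) in SP, as SHMT1 was. MTRR, methionine synthase reductase, was lower at -0.69 (adjusted p = 8.24e-14) and -0.59 (adjusted p = 7.58e-12). MTHFD2L, the mitochondrial isozyme of MTHFD2 (named here after its values were seen), was lower at -1.19 (adjusted p = 2.46e-11) and -1.12 (adjusted p = 6.88e-11). The median log2 fold change of the tested genes of the list was 0.48 in NR and 0.61 in SP.

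Genes that use serine and glycine differed in both directions. Of 18 listed genes 16 could be tested against Ab, with 3 called higher and 2 lower in each comparison. Over all genes 12.4% (NR) and 12.6% (SP) were called higher and 10.3% and 10.6% lower, too near to these counts to set the list apart. The adjusted p was passed in the higher direction by 10 genes in both comparisons, and in the lower by 4 (NR) or 5 (SP). Among all genes tested, 36.4% passed higher in each comparison, and 36.4% (NR) and 36.6% (SP) passed lower. The medians were 0.55 for NR and 0.56 for SP. CTH, the cystathionine gamma-lyase of cysteine synthesis, was lower, at 105 ± 3.26 CPM in Ab, 39.6 ± 3.53 in NR and 34.3 ± 4.26 in SP (log2 fold change -1.40, adjusted p = 6.36e-18 in NR and -1.61, adjusted p = 2.75e-16 in SP). CBS, the enzyme before it (named after its values were seen; 36.8% of its exon bases are shared with another gene), had 53, 89 and 70 counts in the Ab libraries, 1, 0 and 2 in those of NR and 6, 2 and 2 in those of SP. Against a floor of 3 counts per library, averaged over the group, CBS was at least 18.4-fold lower in NR than in Ab. AHCY, which clears S-adenosylhomocysteine, was higher at 0.96 (adjusted p = 6.62e-17) and 0.93 (adjusted p = 5.76e-16), and PTDSS1, which builds phosphatidylserine, at 1.03 (adjusted p = 5.82e-16) in NR and from 50.1 ± 0.489 CPM in Ab to 99.5 ± 2.06 CPM in SP (adjusted p = 4.69e-15).

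Most ATF4 pathway genes were lower in NR and SP than in Ab. Of 14 regulators and feedback genes, 9 were called lower and 0 higher in each comparison, 10 passed the adjusted p in the lower direction in both and 2 (NR) or 3 (SP) in the higher, and the medians were -1.60 in NR and -1.64 in SP. Over all genes 10.3% (NR) and 10.6% (SP) were called lower and 12.4% and 12.6% higher. The adjusted p was passed lower by 36.4% and 36.6% of all genes, and higher by 36.4% in each comparison. ATF4 itself (named after its values were seen) was at 799 ± 27.4 CPM in Ab, 311 ± 18.2 in NR and 278 ± 17.0 in SP (log2 fold change -1.36, SE 0.046, adjusted p = 1.72e-20 and -1.52, SE 0.048, adjusted p = 1.11e-20). CHAC1, a glutathione-degrading enzyme induced by ATF4, had 3616, 4540 and 3551 counts in the Ab libraries, 216, 131 and 136 in those of NR and 254, 211 and 195 in those of SP (-4.35, adjusted p = 2.27e-27 and -4.14, adjusted p = 7.19e-25). SESN2, a leucine sensor of the mTORC1 pathway, was lower at -3.68 (adjusted p = 2.27e-27) and -3.52 (adjusted p = 2.46e-26), and PPP1R15A, which restores translation by dephosphorylating eIF2α, at -2.95 (adjusted p = 2.98e-26) and -2.87 (adjusted p = 3.76e-25). The 4 eIF2α kinases did not reach the 2-fold minimum. EIF2AK1 was higher at 0.50 (adjusted p = 1.31e-11) in NR and 0.51 (adjusted p = 2.56e-11) in SP, and EIF2AK4 at 0.20 (adjusted p = 0.000602) and 0.23 (adjusted p = 0.000199). EIF2AK3 had 0.053 (adjusted p = 0.58) in NR and passed at 0.20 (adjusted p = 0.0318) in SP, and EIF2AK2 had 0.062 (adjusted p = 0.281) and 0.086 (adjusted p = 0.151).

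Amino acid transporters were lower as well, with 7 of 10 called lower, 0 higher and 10 passing the adjusted p in the lower direction in both comparisons, and medians of -1.28 in NR and -1.14 in SP. Over all genes 10.3% (NR) and 10.6% (SP) were called lower and 12.4% and 12.6% higher, and 36.4% and 36.6% passed the adjusted p lower. SLC1A5, a carrier of glutamine and serine with 23.8% of its exon bases inside overlapping genes, was at 752 ± 33.2 CPM in Ab, 163 ± 6.68 in NR and 159 ± 2.69 in SP (-2.20, adjusted p = 5.59e-25 and -2.24, adjusted p = 1.04e-24). SLC6A9, the glycine carrier, was lower at -1.98 (adjusted p = 6.29e-23) and -2.05 (adjusted p = 1.43e-13), and SLC3A2, the shared heavy chain of several carriers, at -1.21 (adjusted p = 3.10e-20) and -1.12 (adjusted p = 4.22e-18). SFXN1, which brings serine into mitochondria (named after its values were seen), was higher at 0.71 (adjusted p = 3.86e-14) and 0.69 (adjusted p = 2.55e-12). In NR against SP, 0 of the 77 tested genes of the 6 related lists plotted here were called or passed the adjusted p in edgeR, 15 had an unadjusted p under 0.05 (12.9% of all genes did), and DESeq2 called 0 genes of the whole table.

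**Figure D4:**
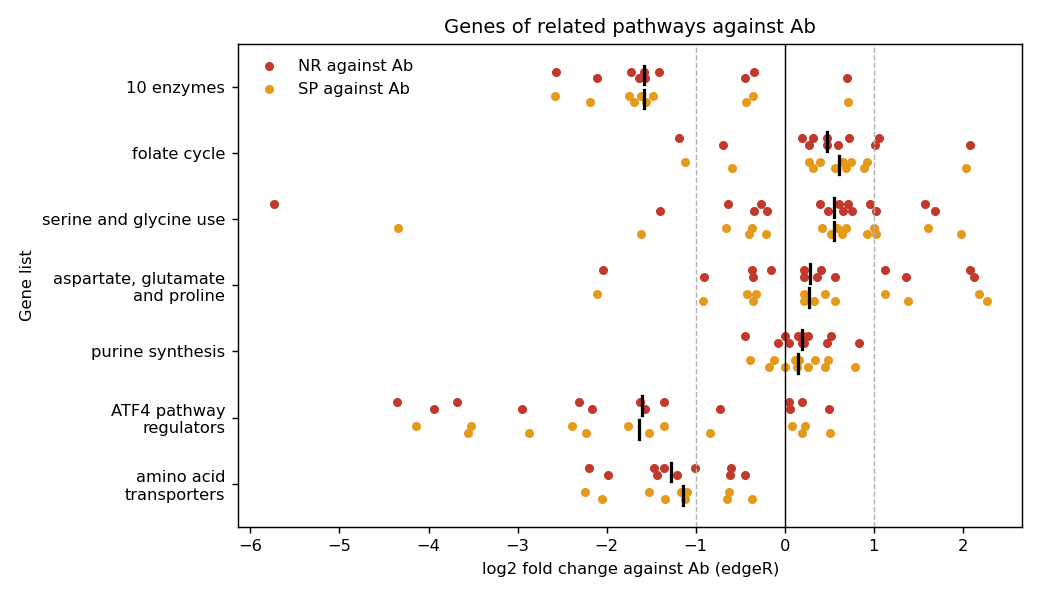
Log2 fold change against Ab of each tested gene of the 10 enzymes and of 6 related gene lists, in NR (red) and SP (orange); black bars are medians and dashed lines mark 2-fold. Medians lie at -1.58 for the enzymes, near -1.6 for the ATF4 pathway and at -1.28 and -1.14 for transporters, and above 0 for the other 4 lists; the point furthest left in each colour is CBS, which is at or near the count floor in the nanoparticle groups, so its position is no estimate of size.

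Other measures moved with the gold groups too. Mitochondrial genes took 4.36% to 4.66% of counts in NR and SP libraries and 3.41% to 3.71% in Ab libraries. The 9 epithelial markers, of which 8 were above 3 counts in some library, summed to 2554 to 2727 CPM in NR and SP and 1012 to 1090 in Ab, led by the keratin KRT8 at 1848 to 2022 and 643 to 678 CPM, while KRT19 was at 0 or 1 count in every library. Of the 8 that could be tested, 4 were called higher in NR and 5 in SP and 0 lower, and CLDN4 (0.091 and 0.093 on the log2 scale) and CLDN7 (-0.13 and -0.17) did not pass the adjusted p. For this and the next marker lists, 12.4% (NR) and 12.6% (SP) of all genes were called higher and 10.3% and 10.6% lower. CDH1 was at 5.65 ± 0.157 CPM in NR, 6.73 ± 0.545 in SP and 0.296 ± 0.126 in Ab. The 9 leukocyte markers, 5 of them above 3 counts, summed to 5.57 to 8.24 CPM in the nanoparticle groups and 1.31 to 2.29 in Ab, led in NR and SP by CSF1R (3.78 ± 0.744 and 4.10 ± 1.49 CPM, 0.203 ± 0.0903 in Ab), with LYZ at 0 in all libraries and PTPRC, CD3E and CD68 at or under 3 counts. CD68 and LYZ have 85.62% and 34.74% of their exon bases inside overlapping genes, so their low counts are uncertain. Of the 3 genes of the list tested in NR against Ab, 2 were called higher and 1 lower, the last being CD14 (2, 7 and 3 counts in NR and 21, 13 and 8 in Ab, adjusted p = 0.0201). The 7 fibroblast markers, 6 of them above 3 counts, summed to 105 to 118 CPM and 18.0 to 46.2 CPM. COL1A1 was the most abundant over all libraries (36.9 ± 0.136 CPM in NR, 39.2 ± 2.40 in SP and 23.9 ± 8.50 in Ab) and did not pass against Ab (adjusted p = 0.131 and 0.0941), with LUM at a like level in NR. LUM (37.3 ± 0.756, 38.3 ± 0.530 and 0.942 ± 0.0248 CPM), DCN and PDGFRB were called higher in NR and SP, with log2 fold changes of 4.65 to 5.35. COL1A2 had 37, 0 and 0 counts in the NR libraries, 49, 49 and 43 in those of SP and 198, 278 and 33 in those of Ab, and did not pass (adjusted p = 0.068 and 0.109). The 5 endothelial markers analysed, 3 of them above 3 counts, summed to 20.8 to 24.1 CPM and 3.80 to 5.24 CPM, led by CDH5, while KDR, which encodes VEGFR2, was at 0 or 1 count in every library. The part of these differences in the enzyme results was not tested. No sequencing batch is given in the sources used here, so batch and group cannot be told apart. The study speaks of biological replicates and of independent repeats of its cell experiments in general. The labels do not say that the libraries of a group came from separate cultures, and if they did not, p-values measure only the spread between these libraries, which may be technical.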

How the data were processed

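Poly-A libraries of SNU5 cells were sequenced with paired ends. The authors filtered out reads with adapter, with poly-N or of low quality, aligned with Hisat2 (2.1.0) and deposited whole read counts per Ensembl gene that are not scaled between libraries. The build is hg19 in the reporting summary and mm9 in the submitters' processing notes, while the gene IDs are human; the counter is Counts in the methods and HTSeq in the reporting summary. The annotation release and the strand setting are not given in the sources used here. No authors' comparison columns were used. Of 60880 IDs, 59858 took names from GENCODE release 44 on GRCh37, and unnamed IDs took up to 0.115% of the counts of a library.

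Each pair of groups was fitted on its own 6 libraries in edgeR 4.0.16 (R 4.3.3, limma 3.58.1) with the robust quasi-likelihood test, TMM factors and the filter filterByExpr at a minimum count of 10 and total of 15, adjusted over all genes tested. A count of 3 was taken as the floor, 0.114 to 0.216 CPM. Within groups, the chi-square per gene between libraries was 1.84 to 7.43, and each library was treated as 1 replicate. This value does not show that the libraries came from separate cultures. The fits were tested on simulated data.

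The members and lists were chosen with earlier results of these data known. Named genes were the 10 enzymes, the 3 genes of each list with the smallest p in NR against Ab, the 5 genes nearest to the median enzyme profile and the most abundant gene of each marker list. The values of some of these genes are not reported here. Alternatives changed the tool (DESeq2 1.42.0), the scaling (RLE), the count filter (none, or 10 counts in each library), the call (glmTreat at 2-fold, a 1.5-fold minimum, no minimum), the libraries fitted (all 9, or one left out at a time) and the block (replicate number). Adding pseudogene counts to the enzymes was chosen after seeing the data. Tables and figures were made in Python 3.11.15 (matplotlib 3.10.9, numpy 2.4.6, pandas 2.3.3).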

Additional observations from a re-analysis of the deposited data

How the results depend on the processing

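The 7 enzymes called lower were the count in NR against Ab and in SP against Ab under all alternatives with the 2-fold minimum kept, and 0 were called in NR against SP under every alternative. With a fold minimum of 1.5, SHMT1 was also called, and with none MTHFD1L and PYCR1 too. Over all genes, a test against 2-fold gave 2061 calls in NR against Ab and 2131 in SP against Ab, a minimum of 1.5 gave 6348 and 6385, and no minimum 10916 and 11002, beside 3409 and 3502. In NR against SP the 3 calls became 0 with DESeq2, 27 with no count filter, 0 with the test against 2-fold, 5 with a minimum of 1.5 and 66 with none. Leave-one-out gave 0 to 28 calls there: 28 without NR replicate 1, 0 without NR replicate 2, 1 without SP replicate 1 and 5 without SP replicate 3. The cause was not tested. DESeq2 gave no adjusted p for SHMT1 and ALDH1L2 in NR against SP.

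With the replicate number as a block, 3414, 3493 and 4 genes were called in NR against Ab, SP against Ab and NR against SP, and 7, 7 and 0 of the enzymes. Libraries of the same number did not deviate together (correlations -0.032 to 0.028), so no shared effect of the number was seen. This does not settle whether samples of the same number were handled together, which the labels do not say.

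The log2 fold change of an enzyme against Ab kept its direction in each alternative. In NR against SP, ASNS turned to -0.026 without NR replicate 2, -0.037 without SP replicate 2 and -0.041 without SP replicate 3 (leave-one-out range -0.041 to 0.10). SHMT1 turned to 0.01 without NR replicate 3 and 0.026 without SP replicate 1 (-0.043 to 0.026), and MTHFD1L to -0.01 without NR replicate 3 and -0.00079 without SP replicate 2 (-0.01 to 0.039). The lowest count of an enzyme in a library was 635 (SHMT1), and the effect of depth was not tested.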

Other observations

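Genes around aspartate, glutamate and proline metabolism were all tested against Ab, 14 of 14, with 4 called higher (PRODH, ALDH4A1, OAT and ASL) and 1 lower (GPT2) in both comparisons, where 12.4% (NR) and 12.6% (SP) of all genes were called higher and 10.3% and 10.6% lower. In each, 8 passed the adjusted p higher and 5 lower, and the median of the list's log2 fold changes was 0.29 in NR and 0.28 in SP. Among all genes tested, 36.4% passed higher in each comparison, and 36.4% (NR) and 36.6% (SP) passed lower. GPT2, a mitochondrial alanine transaminase, was lower at -2.04 (adjusted p = 1.62e-21) and -2.11 (adjusted p = 3.82e-21). OAT, ornithine aminotransferase, was higher at 1.13 (adjusted p = 2.06e-16) and 1.13 (adjusted p = 1.38e-15). PRODH and ALDH4A1, which break proline down (named after their values were seen), were higher. PRODH had 23, 22 and 16 counts in the Ab libraries, 96, 61 and 68 in those of NR and 107, 98 and 89 in those of SP (log2 fold change 2.13, adjusted p = 3.78e-09 in NR and 2.27, adjusted p = 6.11e-10 in SP). ALDH4A1, with 41.77% of its exon bases inside an overlapping gene, was higher at 2.08 (adjusted p = 4.83e-11) and 2.18 (adjusted p = 3.98e-10). PYCR1, which makes proline, was lower than in Ab in the same libraries.

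Purine synthesis, the main user of formate from the folate cycle, had no gene past the 2-fold minimum. Of 12 genes tested, 0 were called in either comparison in edgeR, while 8 passed the adjusted p in the higher direction in both, and 1 (NR) or 2 (SP) in the lower, with medians of 0.20 and 0.15. Over all genes 22.7% (NR) and 23.2% (SP) were called. The adjusted p was passed higher by 36.4% of all genes in each comparison, and lower by 36.4% and 36.6%. PAICS was higher at 0.83 (adjusted p = 1.15e-16) and 0.79 (adjusted p = 1.51e-15), PRPS2 at 0.52 (adjusted p = 7.41e-11) and 0.49 (adjusted p = 4.26e-10), and PRPS1 at 0.47 (adjusted p = 1.84e-10) and 0.45 (adjusted p = 1.02e-09).

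Among the 5 genes whose pattern over the 9 libraries lay nearest to the median profile of the 10 enzymes, out of 14425 other genes compared, were PDE2A, EIF1, KIFC3 and FAM83A. Likeness was the Euclidean distance between gene-centred log2 CPM values, and it was 0.123 for PDE2A, 0.127 for EIF1, 0.133 for KIFC3 and 0.137 for FAM83A. Among the enzymes themselves the distance to that median ran from 0.119 for SHMT2 to 3.23 for SHMT1. PDE2A, a cyclic nucleotide phosphodiesterase, had 4597, 5793 and 4677 counts in the Ab libraries, 2092, 1139 and 1247 in those of NR and 1711, 1826 and 1699 in those of SP. Against Ab it differed by -1.51 in NR and -1.52 in SP on the log2 scale, and these 4 genes lay between -1.46 and -1.66 in both comparisons. EIF1, a translation initiation factor that selects start codons, was lower at -1.46 in NR and -1.54 in SP.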
